A study of Danio rerio with 2 samples.

Results

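The glutathione and thioredoxin systems were followed here through 10 genes, chosen by name with earlier results of these data known. They were gclc, gclm, gss and gsr of glutathione synthesis and recycling, and txn, txnrd3 and srxn1 of the thioredoxin system. The others were the cystine transporter gene slc7a11, the quinone reductase gene nqo1, and nfe2l2a, which encodes an Nrf2 transcription factor. Of the 10, 7 were matched to a row of the deposited tables, and each of the 7 had at least 10 tags over both libraries. The tables gave 17963 genes in all, where each row without a gene symbol was counted as a gene of its own. The accession for txn carries the current symbol txnb, with txn as its older name. The same name in capitals is also listed for txna, a second thioredoxin gene that is not analysed here, so the value given for txn is that of txnb. No row was assigned to gss, srxn1 or slc7a11, which are not analysed here.

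Liver RNA of wild-type zebrafish aged 3 months was profiled by 3' SAGE, in which a short sequence tag near the 3' end stands for a transcript. One library came from fish exposed to sodium arsenate for 96 h and the other from wild-type sibling fish kept in water, with about 15 adults per 3 L tank. The sources used here give neither the arsenate concentration nor the sex of the fish nor the number of livers in a library. With 1 library per group, no difference below has a replicate check, so no test between the conditions could be made.

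The arsenate library held 4420935 tags and the water library 2592679. Levels are in RPM, tags per 1000000 tags of the library, so that a single tag equals 0.226 RPM for arsenate and 0.386 RPM for water. Ratios are arsenate to water, with 95% intervals that cover the counting of independent tags and nothing else. A gene was called higher or lower when its ratio of RPM + 1 was at least 2 or at most 0.5 and it had at least 10 tags. All 7 measured hepatocyte markers had tags in both libraries, at 4.87% of tags for arsenate and 14.2% for water, or 2.52% and 4.51% without fabp10a, the most abundant of them. Exocrine pancreas markers, 16 of 16 of them called lower, made up 0.326% and 3.91% of tags. The 6 testis markers summed to 1.58 RPM and 304 RPM, with 2 of the 6 at 0 in the arsenate library. Of 3 measured neutrophil markers, lyz and mmp9 were called higher, as were some members, with 29 tags against 2 and 44 against 11. The marker mpx lay within 2-fold in the other direction, at 29.2 RPM after arsenate and 51.3 RPM in water. The 3 summed to 45.7 RPM after arsenate and 56.3 RPM in water, and their part in the members' values was not tested.

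Glutathione is a tripeptide built in successive steps. Glutamate-cysteine ligase, a catalytic and a modifier subunit encoded by gclc and gclm, joins glutamate to cysteine and sets the pace, and glutathione synthetase, encoded by gss, adds glycine. Oxidised glutathione is returned to its reduced form by glutathione reductase, and oxidised thioredoxin by thioredoxin reductase, both at the expense of NADPH. In vertebrates many of these genes are switched on by Nrf2, which Keap1 holds in the cytoplasm and marks for degradation until electrophiles or oxidants modify it. The liver is a main site of glutathione synthesis, and trivalent arsenic, to which arsenate is reduced in cells, binds thiols.

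Of the 7 measured members, gsr, txn and txnrd3 were called higher in the arsenate library and none was called lower. Over all 7839 genes with at least 10 tags, 15.6% were called higher and 14.4% lower. Rows without a symbol count among these genes where they have at least 10 tags. The 3 members called higher are 42.9% of the 7, a small count read beside a call that was common over all genes. At 4-fold, gsr and txn were called, where 3.87% of all genes were higher and 4.48% lower. At 1.5-fold, gclm joined the 3, where the shares of all genes were 27.8% higher and 24.4% lower. The other 4 members, gclm, gclc, nqo1 and nfe2l2a, lay within 2-fold. The members had a median log2 ratio of 0.89 on the RPM + 1 scale, against 0.041 for all genes measured. Without gsr, which had 1 tag in the water library, the median of the other 6 was 0.39. In bulk liver, fewer cells of a type and less RNA per cell cannot be told apart, and this holds for every difference here.

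**Figure D1:**
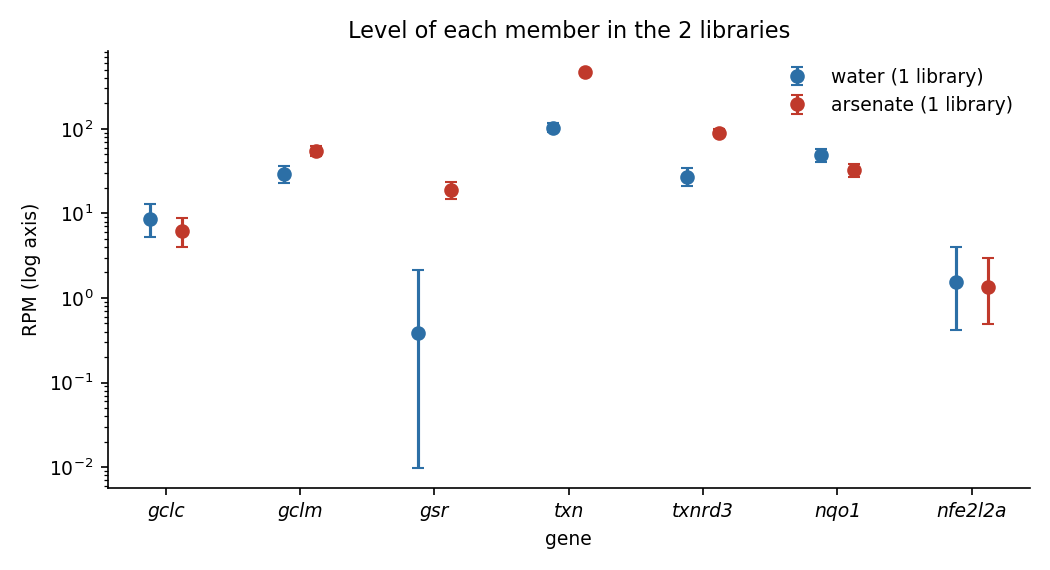
Level of each measured member in RPM (log axis) in the water library and the arsenate library, 1 library each. Points are the levels and bars the 95% Poisson counting intervals, which cover the counting of independent tags and nothing else.

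The glutathione reductase gene gsr stood at 18.8 RPM in the arsenate library, from 83 tags, and at 0.386 RPM in the water library, from 1 tag. The arsenate level was thus far above the water level, in which gsr was the lowest of the measured members. Its ratio was 48.7, with a wide interval of 8.50 to 1945 because the water library rests on that single tag. On the RPM + 1 scale the ratio was 14.3, and 29 of the 7839 genes had a higher one. With a pseudocount of 5 RPM it was 4.41 and with 0.1 RPM 38.9, so the size of the difference is poorly fixed. A pseudocount added to both levels cannot turn the direction. The scalings tried moved the median of all genes by at most 0.19 on the log2 scale. The unchanged direction was therefore no check of this value.

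The modifier subunit gene gclm was at 54.5 RPM after arsenate and 28.9 RPM in water, from 241 and 75 tags. Its ratio of 1.88 (1.45 to 2.48) had an interval above 1, but the gene missed the 2-fold rule. It passed that rule, at a ratio of RPM + 1 of 2.15, when the totals left out the most abundant genes. For this scaling, every gene among the 10 most abundant of either library was left out of both totals. That scaling moved the median of all genes up by 0.19 on the log2 scale.

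The catalytic subunit gene gclc stood lower in RPM than gclm in both libraries, at 6.11 RPM for arsenate and 8.49 RPM for water, from 27 and 22 tags. Its ratio was 0.720 (0.395 to 1.33), an interval that includes 1, so no difference was detectable for gclc at this depth. The subunits were then set against each other within the libraries, which needs no scaling. There were 3.41 gclm tags per gclc tag in the water library and 8.93 in the arsenate library. The ratio of gclm was 2.62 times that of gclc (1.33 to 5.08), so the pair differed beyond counting error. Such comparisons between genes were chosen after their values were seen, and they compare these libraries, not the conditions.

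Thioredoxin is a small protein that reduces disulfides in other proteins, and thioredoxin reductase, a selenoprotein in vertebrates, keeps it reduced. The txn gene was at 467 RPM after arsenate and 103 RPM in water, from 2065 and 267 tags. It was the most abundant member in both libraries and gave the largest difference in level among them, 364 RPM. Its ratio was 4.54 (3.99 to 5.17), and 3.07% of all genes measured had a higher ratio of RPM + 1.

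The reductase gene txnrd3, known before as txnrd1, stood at 90.0 RPM against 27.0 RPM, from 398 and 70 tags. The ratio of 3.33 (2.58 to 4.36) placed it 459th of the 7839 genes by ratio of RPM + 1. In the water library its level was close to that of gclm, 28.9 RPM, within the counting intervals, and in the arsenate library it was 1.65 times that of gclm. The ratio of txnrd3 was 0.735 times that of txn (0.550 to 0.992), somewhat below that of its substrate, with an upper bound close to 1. In mammals TXNRD3 is best known from testis. The testis markers had the opposite direction to txnrd3, with all 4 of those that had at least 10 tags called lower, and their part in its value was not tested.

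The mitochondrial thioredoxin gene txn2 differed little, at 75.3 RPM against 62.1 RPM, a ratio of 1.21. Tags of txn per tag of txn2 went from 1.66 in the water library to 6.20 in the arsenate library, a 3.74-fold difference (2.96 to 4.72). Tags of related thioredoxin genes could have been shared in the mapping, which leaves single values uncertain.

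The nqo1 gene encodes a flavoenzyme that reduces quinones to hydroquinones and is often used as a readout of Nrf2 activity. It was at 32.3 RPM after arsenate and 48.6 RPM in water, from 143 and 126 tags. Its direction was opposite to that of gsr, txn, txnrd3 and gclm. Of 7 measured hepatocyte markers, 6 also had a ratio below 1. So did all measured markers of pancreas (16), testis (4), enterocytes (5), erythrocytes (6), bile ducts (2) and endothelium (1). The ratio was below 1 for 1 of 2 macrophage and 1 of 3 neutrophil markers. The part of any of these cell types in the value of nqo1, or of keap1a, hmox1a, ephx1 and blvrb below, was not tested. The ratio of nqo1 was 0.666 (0.520 to 0.853), an interval below 1. The gene was within 2-fold, and 75.2% of all genes measured had a higher ratio of RPM + 1. Over all scalings and pseudocounts tried, its ratio of RPM + 1 ranged from 0.648 to 0.778. Against txnrd3 the split did not depend on scaling, since the ratio of txnrd3 was 5.01 times that of nqo1 (3.48 to 7.22). That of nqo1 was 0.353 times that of gclm (0.244 to 0.510), whereas nqo1 and gclc could not be told apart, at 0.925 (0.476 to 1.78).

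**Figure D2:**
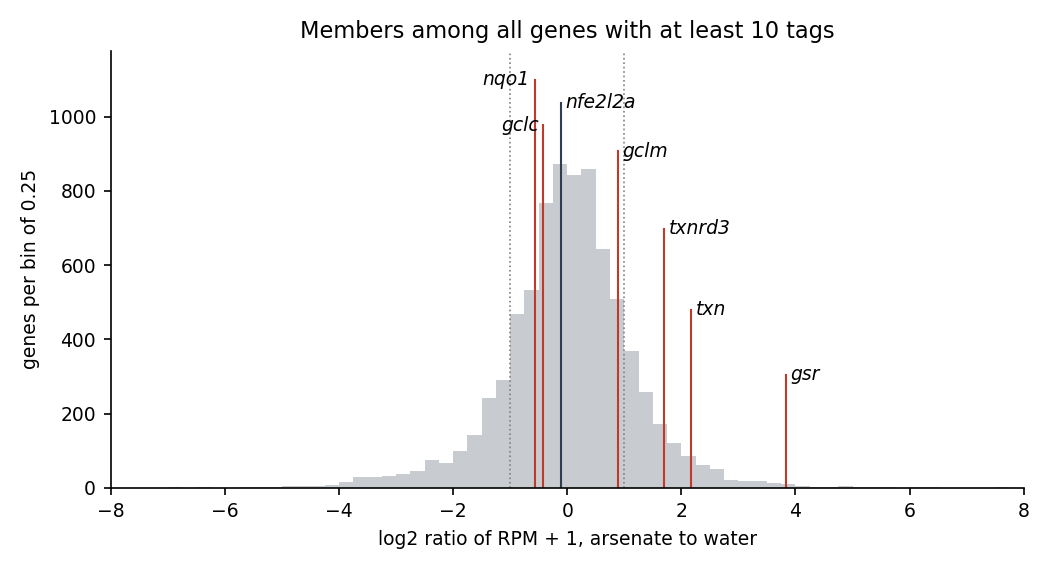
Log2 ratio of RPM + 1 for the 7839 genes with at least 10 tags (grey bars, genes per bin of 0.25), with the measured members as vertical lines whose height carries no value and dotted lines at the 2-fold limits. The lines of gsr, txn and txnrd3 lie to the right of the upper limit, at 3.83, 2.17 and 1.70, and the other members lie between the limits.

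By level, the order in the arsenate library was txn, txnrd3, gclm, nqo1, gsr, gclc and nfe2l2a, and the counting intervals of neighbours in that order did not overlap. In the water library the order was txn, nqo1, gclm, txnrd3, gclc, nfe2l2a and gsr. There the intervals overlapped for the neighbours gclm and txnrd3 and for nfe2l2a and gsr, and for no other neighbours. These are tag abundances, about 1 tag per transcript, so length does not enter, but transcripts can differ in how well their tag is captured and mapped.

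The regulators of the pathway were set against these targets. The nfe2l2a gene itself was near the limit of detection, at 1.36 RPM after arsenate and 1.54 RPM in water, from 6 and 4 tags. Its ratio of 0.880 (0.209 to 4.24) allows a 4-fold difference in either direction, so no difference in its transcript was detectable at this depth. The sign turned when the genes among the 10 most abundant of either library were left out of both totals. The ratio of RPM + 1 for nfe2l2a was then 1.01. Any change in Nrf2 protein, by which Keap1 acts on the factor, is not measured by tags. The paralog nfe2l2b, also a listed regulator, was not matched to a row and is not analysed here.

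Zebrafish carry a pair of Keap1 genes, and their ratios lay on opposite sides of 1. The keap1a gene was at 41.8 RPM after arsenate and 73.3 RPM in water, from 185 and 190 tags, a ratio of 0.571 (0.464 to 0.703). The keap1b gene was at 20.1 RPM against 12.3 RPM, from 89 and 32 tags, a ratio of 1.63 (1.08 to 2.53). Neither was called under the 2-fold rule. The ratio of keap1b was 2.86 times that of keap1a (1.78 to 4.64). In the water library there were 0.168 keap1b tags per keap1a tag and in the arsenate library 0.481, so keap1a had more tags than keap1b in both libraries. Tags of close copies such as these may have been shared in the mapping.

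The cullin gene cul3a, whose product is the scaffold of the ubiquitin ligase that Keap1 brings to Nrf2, stood at 11.1 RPM against 3.86 RPM, from 49 and 10 tags. The dipeptidyl peptidase gene dpp3, whose product competes with Nrf2 for KEAP1 in human cells, stood at 12.2 RPM against 4.24 RPM, from 54 and 11 tags. Both were called higher, with ratios of 2.87 (1.44 to 6.36) and 2.88 (1.49 to 6.11). The small Maf gene maff, of the family that pairs with Nrf2 on DNA, was also called higher, but it had 13 tags against 2, and the interval of its ratio of 3.81 (0.863 to 34.8) included 1. The repressor gene bach1b, which competes for the same DNA sites, had 13 tags against 6 and a ratio of 1.27 (0.451 to 4.08). The related factor gene nfe2l1a had 3 tags in the arsenate library and was listed blank in the water library, and mafgb was blank in both.

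Together, 3 of the 7 measured regulators, nfe2l2a included, were called higher and none lower, while for the 6 measured targets the counts were 3 and 0. The background shares of 15.6% higher and 14.4% lower apply here too. The regulators' median log2 ratio was 0.66, against 1.30 for the 6 targets, or 0.89 for the 5 targets other than gsr. The regulators include genes that hold Nrf2 back and genes that aid it, so their median gives no direction for the pathway. As a sum of tags the regulators were at 93.2 RPM after arsenate and 98.4 RPM in water, a ratio of 0.948 (0.809 to 1.11) that keap1a dominates. The summed targets were at 669 RPM against 216 RPM, a ratio of 3.09 (2.82 to 3.39) that txn dominates. Of the 17 regulators listed, 8 were not matched to a row and 2 had under 10 tags, so the counts describe a part of the list.

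**Figure D3:**
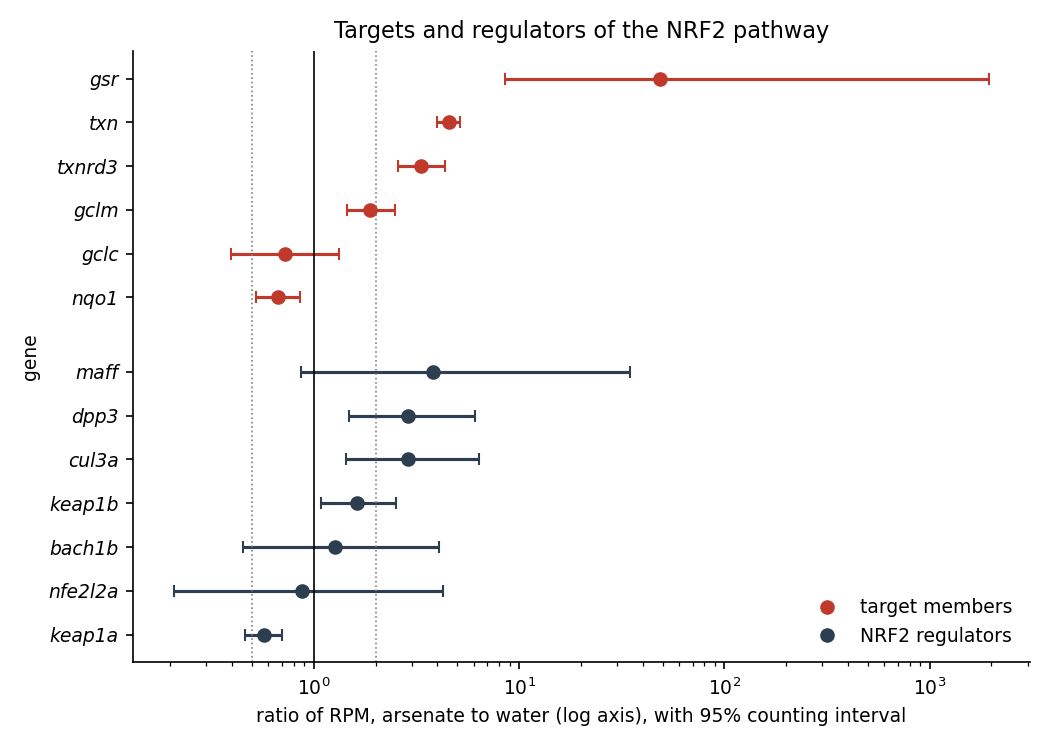
Ratio of RPM, arsenate to water (log axis), for the 6 measured target members and the 7 measured NRF2 regulators, with 95% counting intervals, a solid line at 1 and dotted lines at 2-fold. The intervals of gsr, txn and txnrd3 lie above 2, that of nfe2l2a spans both dotted lines, and keap1a and keap1b lie on opposite sides of 1.

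Of 5 other genes of glutathione synthesis and turnover that were measured, lap3 was called higher, chac1 and anpepb lower, and chac2 and slc25a39 neither, with a median log2 ratio of -0.48. Over all genes 15.6% were called higher and 14.4% lower, and counts this small are given as a description. The gene chac1, whose product degrades glutathione in the cytosol and which is induced by endoplasmic reticulum stress in mammals, was 2.78-fold lower (1.90 to 4.11), with levels of 10.4 RPM after arsenate and 28.9 RPM in water. The aminopeptidase gene anpepb, listed as anpepb.1, acts on peptides at the cell surface and was 4.08-fold lower (3.23 to 5.18), at 23.5 RPM against 96.0 RPM. The leucine aminopeptidase gene lap3 was at 30.3 RPM against 13.9 RPM, a ratio of 2.18 with an interval that stayed above 1 and reached 3.25. For slc25a39, which carries glutathione into mitochondria, the levels were 22.4 RPM and 31.6 RPM. The enzyme anpepb is also abundant in intestine, and 3 of 5 measured enterocyte markers were called lower, with summed levels of 447 RPM and 1493 RPM and 1 of 6 markers blank in both libraries. Their part in the value of anpepb was not tested.

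The remaining thioredoxin and glutaredoxin genes were mostly within 2-fold, with 1 of 10 measured called higher and none lower, beside 15.6% and 14.4% of all genes. Their ratio was above 1 for 9 of the 10, or 8 with TMM scaling, under which glrx5 was below 1, against 52.0% of all genes measured, with a median log2 ratio of 0.41. The counting interval included 1 for 4 of the 9, which were glrx2, glrx5, txndc9 and txndc17. The gene called was txnl1, a thioredoxin-like protein that binds the proteasome, at 15.2 RPM against 3.86 RPM, a ratio of 3.93 (2.01 to 8.57). The most abundant was the cytosolic glutaredoxin gene glrx, which reduces glutathione-protein disulfides, at 132 RPM against 87.2 RPM, a ratio of 1.52 (1.30 to 1.78). The endoplasmic reticulum thioredoxin gene txndc12 had a ratio of 1.28 (1.05 to 1.55), and txnipa, whose mammalian counterpart binds and inhibits thioredoxin, 1.39 (1.07 to 1.82). The one gene below 1 was glrx3, a glutaredoxin of iron handling, at 43.2 RPM against 55.9 RPM.

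Cysteine is the limiting amino acid for glutathione. Of 6 measured genes of its supply and use, none was called higher and 2 were called lower. However, cth passed the rule when the 10 most abundant genes of either library were left out of both totals. With 15.6% of all genes called higher and 14.4% lower, these counts are read as a description of single genes. The cystathionine beta-synthase gene cbsa, which commits homocysteine to cysteine, was 3.52-fold lower (3.13 to 3.98), with levels of 91.4 RPM after arsenate and 322 RPM in water. Its paralog cbsb stood at 36.2 RPM and 57.1 RPM. The next enzyme of that route, cystathionine gamma-lyase, had the other direction within 2-fold, with cth at 63.3 RPM against 33.2 RPM, a ratio of 1.91 (1.49 to 2.46). The cysteine dioxygenase gene cdo1, which diverts cysteine to taurine and sulfate, was 4.62-fold lower (2.85 to 7.71), at 5.43 RPM against 25.1 RPM. For the heavy chain that pairs with the cystine transporter, slc3a2b had a ratio of 1.69 (1.22 to 2.37) and slc3a2a of 1.05 (0.582 to 1.95). The hepatocyte markers, of which 2 of 7 were called lower and 6 of 7 had a ratio below 1, moved with cbsa and cdo1. So did the markers of most other cell types, as given for nqo1 above. The part of any of them in these values was not tested.

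NADPH feeds both reductases. Of 5 measured genes that supply it, 2 were called higher and none lower, beside 15.6% and 14.4% of all genes. The cytosolic isocitrate dehydrogenase gene idh1 was at 166 RPM against 26.2 RPM, a ratio of 6.33 (4.93 to 8.24), and the transaldolase gene taldo1 at 1458 RPM against 298 RPM, a ratio of 4.89 (4.54 to 5.28). The transketolase gene tktb lay within 2-fold at 236 RPM against 168 RPM. The genes rpia and pgls had ratios below 1, and neither was called lower. The ratio of rpia was 0.726 (0.551 to 0.958). With 11 and 14 tags, pgls had a ratio of 0.461 (0.189 to 1.09), or 0.545 on the RPM + 1 scale.

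Of 8 other measured genes known as Nrf2 targets in vertebrates, 2 were called higher and 2 lower, beside 15.6% and 14.4% of all genes. The ferritin gene fth1a and taldo1 were the ones higher, fth1a at 2066 RPM against 354 RPM. The ones lower were hmox1a, the heme oxygenase gene, by 2.40-fold, and the epoxide hydrolase gene ephx1, by 2.64-fold (2.21 to 3.15), with ephx1 at 47.3 RPM against 125 RPM. The direction of nqo1 was thus shared by hmox1a, ephx1 and the biliverdin reductase gene blvrb, for which 6.33 RPM stood against 12.7 RPM. For gstp1.2, a glutathione S-transferase gene, the ratio of 1.92 was just within 2-fold, and past it under that same scaling, and the carbonyl reductase gene cbr1 had 27 tags against 12. Over all 38 measured genes of these lists that are not members, 8 were called higher and 6 lower, or 21.1% and 15.8%, beside 15.6% and 14.4% of all genes. By the exact binomial test on tags the counts were 7 and 7.

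**Figure D4:**
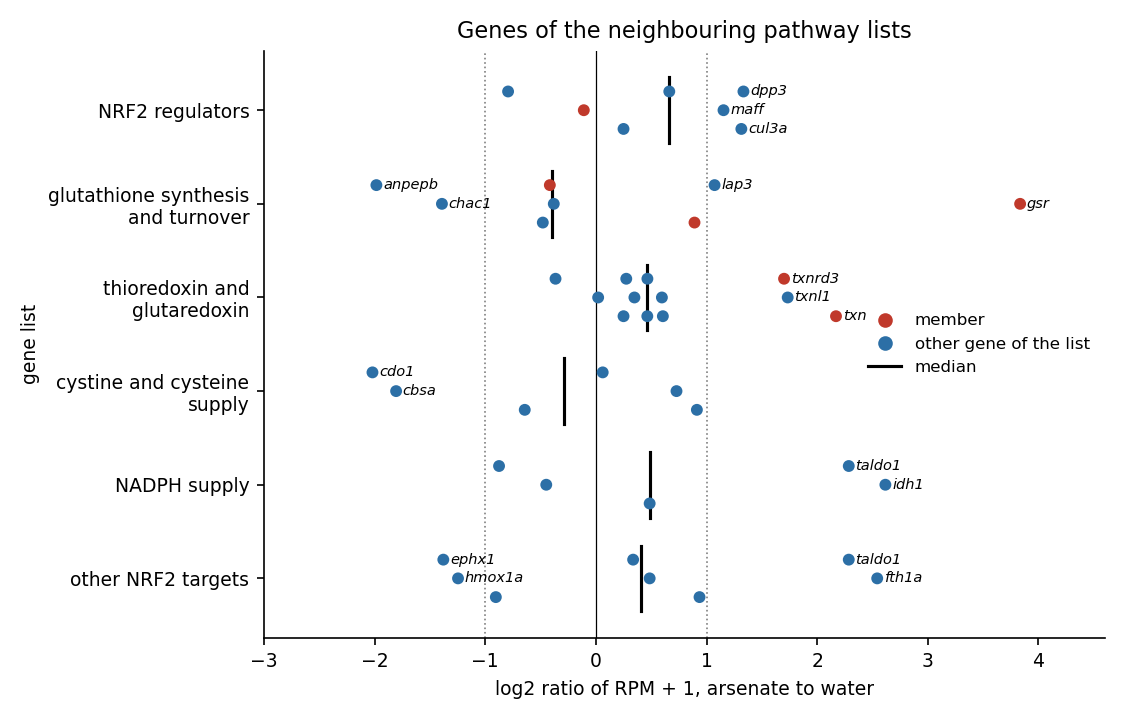
Log2 ratio of RPM + 1 for every gene with at least 10 tags in the 6 pathway lists, members in red and other genes in blue. A black bar marks each list's median, and names are given for genes beyond the dotted 2-fold lines. The genes taldo1 and tktb are each in 2 lists. The list medians lie between -0.40 for glutathione synthesis and turnover and 0.66 for the regulators, while single genes lie as far out as 3.83 for gsr and -2.02 for cdo1.

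The calls of gsr, txn and txnrd3 were also made by an exact binomial test on the tags, with Benjamini-Hochberg adjustment over all 7839 genes and at least 2-fold, which called 13.8% of all genes higher and 13.6% lower. The adjusted p was 9.23e-15 for gsr, 2.54e-169 for txn and 1.06e-24 for txnrd3, and these values compare the libraries, not the conditions. By the same test gclm had an adjusted p of 3.45e-06 and nqo1 of 0.00339, both below 2-fold, and gclc had 0.444. The same 3 members were called when the marker genes of pancreas, testis and enterocytes were left out of the library totals, a scaling chosen after the data were seen. It moved the median of all genes by only -0.051 on the log2 scale, too little to undo these calls. The part of those tissues in the members' values was not tested by it.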

How the data were processed

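The 2 libraries were used, 1 per group, grouped by the treatment in the labels. The authors deposited a table per library of 17991 transcripts with a value headed TPM. The values were read as RPM, as deposited by the authors, since 100% are whole multiples of 1 tag within 0.01 tags and each column sums to 1000000. The sources used here name no mapping tool, reference release or filter. Blanks were taken as 0.

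Whole tags were recovered, RefSeq accessions were matched to symbols through NCBI's gene table for GRCz12tu, for names alone (9463 of 10556 accessions matched; 7435 rows have no accession), and rows of a symbol were summed. Rows without a symbol, for lack of an accession or of a match, were each kept as a gene of their own. Older names were used where a listed name was no current symbol. No coordinates or sequences are given. The genes named were all members, the measured regulators and, in each list, the genes past 2-fold and the 2 with the most tags; others are given after their values were seen. Members and lists were chosen with earlier results of these data known. Ratio intervals are Clopper-Pearson intervals, turned from shares of tags into ratios, level intervals are exact Poisson and those between genes exact conditional; PCR copies would make them too narrow. A count test is an alternative only: the exact binomial test called 1084 genes higher and 1065 lower.

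Alternatives were TMM (edgeR 4.0.16) and median-of-ratios scaling (DESeq2 1.42.0) in R 4.3.3. Others were pseudocounts, tag minimums, folds, thinning and the row with most tags, with Python 3.11.15 and scipy 1.17.1. A further alternative left the genes among the 10 most abundant of either library out of both totals, with the geometric mean of the totals kept. The steps were tested on simulated tags drawn with counting error alone, which cannot show how replicate libraries would differ.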

Additional observations from a re-analysis of the deposited data

How the results depend on the processing

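For single members and regulators, 103 ratios of RPM + 1 were recomputed. In 102 the log2 shift was no larger than the distance from the gene's ratio to the bound of its counting interval on that side. Each of these genes had 1 row, so keeping the row with most tags could not move it. Where the interval is wide, as for nfe2l2a, a shift within it shows little. A recomputed value can still lie outside the gene's counting interval, as gsr did with a pseudocount of 5 RPM, at 4.41 against 8.50 to 1945. The exception to the 102 was txn scaled without the 10 most abundant genes of either library, which moved up to a log2 ratio of 2.39. That scaling shifted the median over all genes up by 0.19 (log2) and made 63.5% of calls higher ones, against 52.1%. No called member changed direction, but the scalings moved ratios too little to turn one, and a pseudocount cannot turn one. Without gsr the members' median log2 ratio was 0.39. The members called higher were 4 at 1.5-fold and 2 at 4-fold. Genes called higher and lower over all genes numbered 580 and 610 with a pseudocount of 5 RPM, 713 and 565 with at least 50 tags, 2176 and 1913 at 1.5-fold and 303 and 351 at 4-fold, as stricter or looser rules give. The regulators' median was below the targets' in every setting, by 0.23 to 0.73 on the log2 scale. The 0.23 came from leaving out gsr, a setting not planned in advance. Scaling moves both medians nearly alike, so it could hardly change this difference. With a pseudocount of 5 RPM none of the regulators was called, and by the exact test 2 were. No paired analysis was possible because each group has 1 library. Depth limits nfe2l2a, gclc, maff and bach1b, and the water value of gsr.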
